A study of Ulva lactuca with 7 samples.

Results

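Blades of the green seaweed Ulva lactuca that had been put back into seawater for 1 h after 36 h of drying were compared with blades that were still dry after 36 h. The comparison uses 2 of the 7 libraries of the series, 1 on each side, and takes every assembled transcript with a mean count of 10 or more over the 7 libraries. That left 66046 of 137594 transcripts, which fall into 22319 assembled genes. Results are also given with 1 transcript per assembled gene, the one with the highest summed count, because isoforms of a gene share reads.

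Sea lettuce lives in the intertidal zone, where its thin blades lose water at low tide and take it up again when the tide returns. Return to water after drying is known as a demanding step for such plants and algae, since cells must repair membranes, restart photosynthesis and respiration, and remove reactive oxygen species that form on rewetting. Part of this is served by transcripts made or kept during drying, and part by transcripts made after water returns. Which transcripts change in this transition is the question of the series.

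The thalli, as the blades of this alga are called, were acclimatised in the laboratory. The resubmerged library came from thalli dried for 36 h at 20% moisture and then kept in autoclaved seawater for 1 h, and the desiccated library from thalli dried for 36 h under the same condition. The other 5 libraries are the matching pairs for 24 h and 72 h of drying and a control that was always submerged, and they serve here for the filter, the scaling and values set side by side. Each condition has 1 library, and the labels do not say how many thalli went into it, so no difference below has a replicate check and none has a p-value of its own. Total RNA of whole thalli was sequenced, so fewer cells of a type and less RNA per cell cannot be told apart. No gene names or products come with the transcripts in the files, so the labelled tissue could not be checked against marker genes, no gene group by function is described, and transcripts carry assembly identifiers only. In an identifier the c number marks an assembly component, a cluster of related sequences, the g number an assembled gene in it and the i number an isoform.

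The total count was 85041447 in the library resubmerged after 36 h and 89184889 in the library desiccated for 36 h, within the range of 63782317 to 97270080 over all 7. These totals are 2.59 and 2.74 times the numbers of reads that the deposited FPKM values imply, so reads can be counted more than once. The 10 transcripts with the most counts took 9.35% of the counts after resubmergence and 10.6% in the dry library. Both libraries detected similar numbers of transcripts, 104222 after resubmergence and 102269 after drying. The library resubmerged after 36 h held 89 transcripts nearly alone, defined as at least 50 counts and at least 20 times the scaled level of any other library, while the library desiccated for 36 h held 24. The library desiccated for 72 h stood apart with 1330 such transcripts. Some counts and shares that rest on this library are also given without them, where this is stated, and the others include them.

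The transcripts with the largest gain were close to absent from every other library. Transcript c34479_g3_i1 (639 nt, 55.2% GC) had 96103 counts in the library resubmerged after 36 h, against 6 in the library desiccated for 36 h. It had 12 and 1 counts in the resubmerged and desiccated libraries of 24 h, 3 and 1 in those of 72 h, and 1 in the control. The library resubmerged after 36 h is therefore the only 1 of the 7 with more than 12 counts. The ratio of the scaled levels in the 36 h pair was 14957 (95% counting interval 6872 to 40759). The second, c34479_g4_i1 (629 nt, 56.8% GC), had 47300 counts after resubmergence and 2 in the dry library, with 2 and 0 in the 24 h pair, 2 and 1 in the 72 h pair and 0 in the control. Its ratio was 22085 (6113 to 182369). Both were named by the highest lower limit of the counting interval, and intervals cover counting error only. The intervals take each count as a separate read, so reads counted more than once make them too narrow.

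These transcripts belong to the same component, and the other members of it did the same. All 5 transcripts of the component past the filter, in 4 assembled genes, had 47300 to 155749 counts in the library resubmerged after 36 h and 2 to 15 counts in the library desiccated for 36 h. In the other 5 libraries they had 0 to 12 counts. Per length, c34479_g3_i1 reached a deposited FPKM of 4578 after resubmergence, against 0.289 in the dry library, and c34479_g4_i1 reached 2289 against 0.0979. In the authors' deposited table of this pair the adjusted p-values are 0.00192 for c34479_g3_i1 and 0.000710 for c34479_g4_i1.

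On the lower side, c26385_g1_i1 (2487 nt, 30.8% GC) had 0 counts in the library resubmerged after 36 h and 1277 in the library desiccated for 36 h. It had 1 and 10086 counts in the 24 h pair, 0 and 3008 in the 72 h pair, and 1162 in the control. Every resubmerged library is thus at 0 or 1 count, and every desiccated library and the control are above 1000. Set at a floor of 3 counts after resubmergence, the transcript was 456-fold lower than in the dry library. The lower 95% counting limit of the ratio, from the counts themselves, was 370. Its adjusted p in the authors' deposited table is 0.00359.

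The second on this side shows another pattern over the libraries. Transcript c34582_g1_i3 (5671 nt, 55.3% GC) had 167 counts after resubmergence and 49770 in the dry library of 36 h. The dry library was 319-fold above the resubmerged one (274 to 374). In the 24 h pair it had 45946 and 35366 counts, a ratio of 1.27 (1.25 to 1.29), so that after 24 h of drying it was not lower on resubmergence. In the 72 h pair it had 229 and 14211 counts, with the dry library 81.4-fold above the resubmerged one (71.5 to 93.2), and the control had 263. It was thus high in 4 libraries, the 3 dry ones and the one resubmerged after 24 h, and low in the other 3. All 4 isoforms of its assembled gene were at least 4-fold lower in the 36 h pair, with log2 ratios of -8.30 to -7.93. The adjusted p of c34582_g1_i3 in the authors' deposited table is 0.0636.

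**Figure D1:**
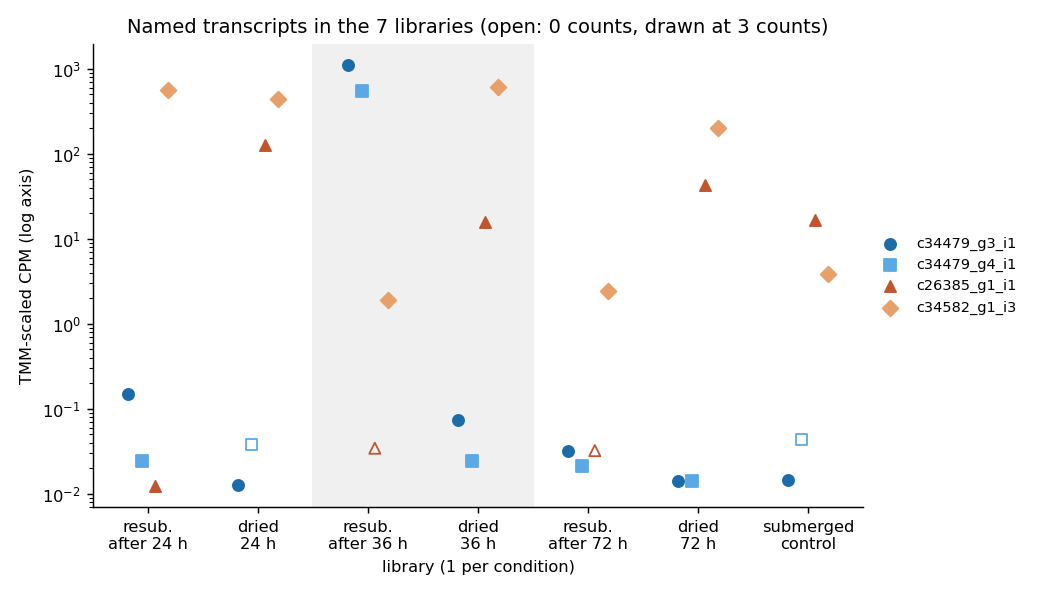
Scaled CPM (log axis) of the 4 named transcripts in the 7 libraries, 1 point per library, with the 36 h pair shaded and open symbols for 0 counts drawn at the level of 3 counts. The 2 transcripts of component c34479 stand high only in the library resubmerged after 36 h, c26385_g1_i1 is at 0 or 1 count in the 3 resubmerged libraries, and c34582_g1_i3 is low in the libraries resubmerged after 36 h and 72 h and in the control.

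The named transcripts are the ends of longer lists. The 20 assembled genes with the highest lower limits for a gain came from 13 components and had 4524 to 806512 counts after resubmergence and 0 to 141 in the dry library, with lower limits of 844 to 6872. Of these 20, 4 had at least 1000 counts in the library resubmerged after 72 h, 3 in the library desiccated for 72 h, 2 in the control and 0 in either library of 24 h. The 20 with the highest lower limits for a loss came from 19 components and had 0 to 281 counts after resubmergence and 182 to 49770 in the dry library, with lower limits of 43.5 to 370. Here 10 had at least 1000 counts in the library desiccated for 24 h, 6 in that of 72 h, 4 in the library resubmerged after 24 h, 2 in that resubmerged after 72 h and 1 in the control. Gains thus reached larger ratios than losses. The choice by the 36 h ratio bears on the levels in the other dry libraries, which resemble that of 36 h.

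Over all transcripts the 36 h pair was far apart in both directions, with more on the higher side. At least 4-fold higher after resubmergence were 8458 transcripts, 12.8% of all, and at least 4-fold lower were 4635, or 7.02%. The threshold applies to the log2 ratio of depth-scaled counts (CPM, scaled by trimmed means), with a prior count of 2. With 1 transcript per assembled gene, 3843 of 22319 were higher (17.2%) and 1641 lower (7.35%). The excess on the higher side grew with the size of the ratio. At 16-fold, 1550 transcripts were higher (2.35%) and 416 lower (0.630%), and at 64-fold 256 were higher (0.388%) and 59 lower (0.0893%). With 1 per gene, 867 were higher (3.88%) and 198 lower (0.887%) at 16-fold, and 136 higher (0.609%) and 24 lower (0.108%) at 64-fold. At 2-fold the sides were closer, with 17819 higher (27.0%) and 15231 lower (23.1%), and 49.96% of the transcripts stayed within 2-fold.

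The scaling sets the middle of the distribution near 0. The median log2 ratio was 0.00 over all transcripts, with quartiles of -0.92 and 1.11, and 0.20 with 1 transcript per assembled gene, with quartiles of -0.78 and 1.40. Among the 66046 transcripts, 808 had 0 counts in both libraries and passed the filter through other libraries. The 5th and 95th percentiles were -2.26 and 3.19 over all transcripts, and -2.37 and 3.77 with 1 per gene. Without the 89 transcripts held nearly alone by the resubmerged library, 8369 stayed at least 4-fold higher. A counting interval that lies wholly past 4-fold was found for 5975 transcripts on the higher side and 2934 on the lower.

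**Figure D2:**
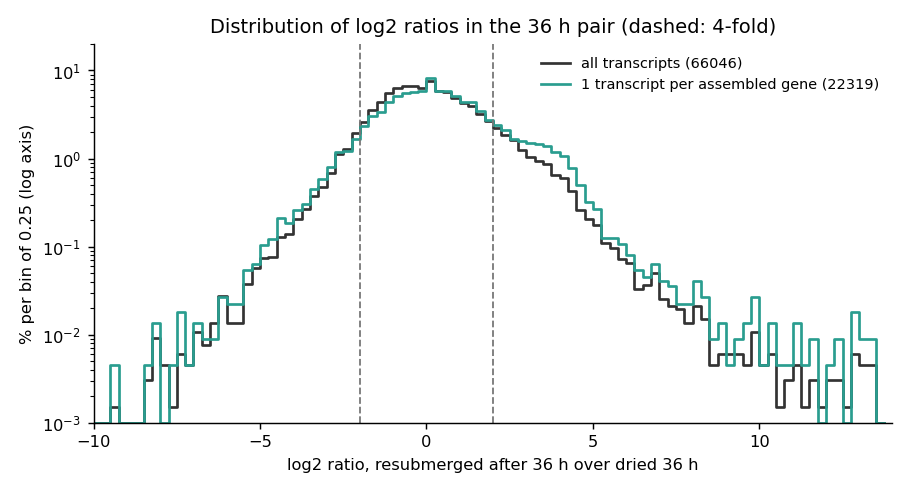
Distribution of the log2 ratio of the library resubmerged after 36 h over the library desiccated for 36 h, in bins of 0.25, for all transcripts and for 1 transcript per assembled gene, as a percentage of each set on a log axis. Both curves reach further to the right than to the left of the dashed 4-fold lines, and the curve for 1 per gene has a shoulder on the higher side, where its 95th percentile is 3.77 against 3.19 for all transcripts.

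At 4-fold the 36 h pair held more differences in all than the pairs of the other drying periods, which share no library with it. In the 24 h pair 3642 transcripts were at least 4-fold higher after resubmergence (5.51%) and 2176 lower (3.29%), and in the 72 h pair 2713 were higher (4.11%) and 4958 lower (7.51%). The 4958 became 3628 of 64716 without the transcripts held nearly alone by the library desiccated for 72 h. At larger ratios the other pairs leaned to the lower side. The 24 h pair had 209 transcripts at least 16-fold higher (0.316%) and 335 lower (0.507%), and 10 higher (0.0151%) and 72 lower (0.109%) at 64-fold. The 72 h pair had 287 higher (0.435%) and 2226 lower (3.37%) at 16-fold, and 47 higher (0.0712%) and 1041 lower (1.58%) at 64-fold. Without the transcripts nearly alone in the library desiccated for 72 h, 896 were lower at 16-fold and 293 at 64-fold, with the same numbers higher. At these sizes the 72 h pair with all transcripts thus held more differences than the 36 h pair. With 1 library on each side, how much of this is spread between thalli was not tested. By the same measure the library resubmerged after 36 h was closer to the other libraries that were under water than to any dry one. It differed by 4-fold or more from the library resubmerged after 72 h in 9.82% of the transcripts, from that resubmerged after 24 h in 13.2% and from the control in 14.3%. Against the dry libraries the shares were 18.3% at 72 h (16.6% without the transcripts nearly alone there), 19.8% at 36 h and 22.1% at 24 h. The library desiccated for 36 h was nearest to that of 24 h, with 7.74% of the transcripts 4-fold or more apart. With 1 transcript per assembled gene the shares for the control and the nearest dry library lay closer together. The library resubmerged after 36 h then stood at 15.6% and 15.4% from the libraries resubmerged after 72 h and 24 h and 22.0% from the control, against 24.6%, 26.4% and 27.6% from those desiccated for 36, 24 and 72 h, the last 24.9% without those transcripts. These comparisons share a library and are given as values only.

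Transcripts of both lists were followed into the 24 h and 72 h pairs, whose ratios the choice of the lists did not use. The libraries of these pairs did enter the filter and the scaling. A transcript with few counts can pass the filter through the resubmerged libraries, which favours shared gains. The part of the filter in the recurrence was not tested. Of the 8458 higher at 36 h, 2162 were also at least 4-fold higher in the 24 h pair, which is 25.6% of this list and 59.4% of the 24 h list, where 5.51% of all transcripts were. In the 72 h pair 1173 were, 13.9% of the 36 h list and 43.2% of the 72 h list, where 4.11% of all were. On the lower side 533 of 4635 were also lower at 24 h, 11.5% of the 36 h list and 24.5% of the 24 h list, beside 3.29% of all. In the 72 h pair 572 were, 12.3% of the 36 h list and 11.5% of the 72 h list, beside 7.51% of all, and 550 of 4613 (11.9%) beside 5.61% without the transcripts nearly alone in the library desiccated for 72 h. The recurrence was thus above the share of all transcripts in each of these comparisons, and highest for gains in the 24 h pair. With the GC trend removed from the ratios, 1101 higher transcripts were shared with 24 h, 18.5% of the 36 h list and 41.4% of the 24 h list, beside 4.03% of all, and 283 lower ones, 7.52% and 20.1%, beside 2.13% of all.

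A smaller share of each 36 h list than of all transcripts was below 4-fold, in either direction, in both other pairs. The numbers were 4993 of the 8458 higher transcripts (59.0%) and 3560 of the 4635 lower ones (76.8%), beside 81.7% of all transcripts. The median log2 ratio of the higher list was 1.15 in the 24 h pair and 0.73 in the 72 h pair, beside medians of all transcripts of -0.03 and 0.02. That of the lower list was -0.75 and -0.48. Opposite moves of 4-fold or more were found for 205 of the higher transcripts at 24 h (2.42%) and 512 at 72 h (6.05%), beside 3.29% and 7.51% of all. For the lower ones they were found for 111 (2.39%) and 45 (0.971%), beside 5.51% and 4.11% of all. Each share was thus below that of all transcripts. With 1 transcript per assembled gene, 36.1% of the higher list recurred at 24 h (9.51% of all) and 19.7% at 72 h (8.65%), and 17.1% (4.97%) and 18.9% (10.6%) of the lower list, the last being 18.3% (7.37%) without the transcripts nearly alone in the dry library of 72 h.

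**Figure D3:**
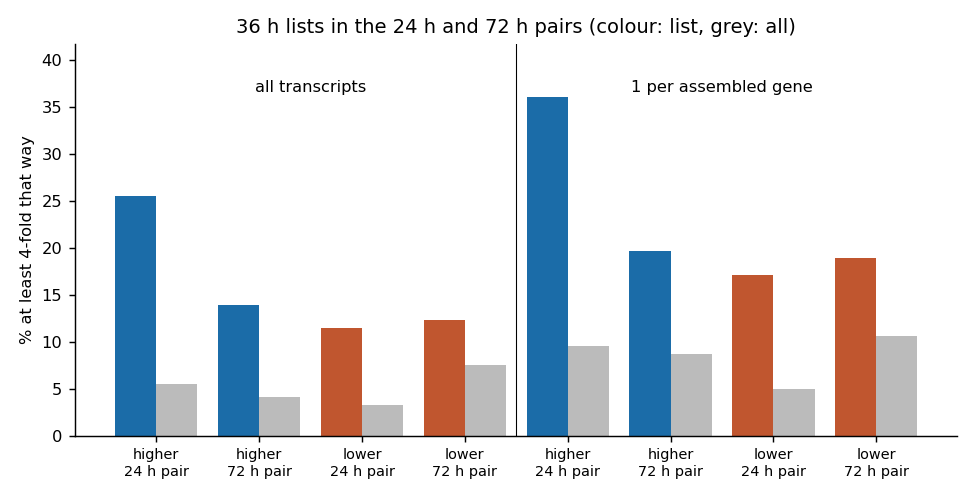
Share of the 36 h lists that was at least 4-fold apart in the same direction in the 24 h and 72 h pairs (coloured bars), beside the share of all transcripts (grey bars), for all transcripts on the left and 1 per assembled gene on the right. Each coloured bar is above its grey bar, and the tallest are the higher lists in the 24 h pair, at 25.6% and 36.1%.

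The levels of the lists in the single libraries show where the 2 libraries of the pair stood. The 8458 higher transcripts had a median of 1.34 log2 CPM in the library resubmerged after 36 h and -1.88 in the library desiccated for 36 h. In the resubmerged libraries of 24 h and 72 h the median was -0.16 and 0.27, in the dry ones -1.14 and -0.18, and in the control -0.24. For 5354 of them the highest level of all 7 was in the library resubmerged after 36 h (63.3%), beside 17.7% of all transcripts. The lowest level was in the library desiccated for 36 h for 3835 (45.3%), beside 14.01% of all transcripts. These lists were chosen by the 36 h ratio, which favours both extremes.

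The 4635 lower transcripts had a median of -0.40 log2 CPM in the library resubmerged after 36 h and 2.26 in the library desiccated for 36 h. Their median was 1.31 and 1.00 in the libraries resubmerged after 24 h and 72 h, 2.08 and 1.70 in the dry libraries of these periods, and 0.50 in the control. The library resubmerged after 36 h and the control thus had the lowest medians of this list. For 2938 of them the lowest level of all 7 was in the library resubmerged after 36 h (63.4%, beside 18.2% of all transcripts). The highest level was in the library desiccated for 36 h for 1975 (42.6%) and in that desiccated for 24 h for 1692 (36.5%). Of all transcripts, 13.7% and 18.3% had their highest level there.

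In counts, the higher list took 20.0% of the library resubmerged after 36 h and 2.04% of the library desiccated for 36 h, with 7.45% and 2.74% in the 24 h pair, 7.73% and 6.77% in the 72 h pair and 8.44% in the control. The lower list took 3.34% after resubmergence and 17.6% in the dry library, 13.3% and 23.0% in the 24 h pair, 8.83% and 10.3% in the 72 h pair and 6.50% in the control. The lists were chosen by these 2 libraries, so their own shares only describe the size of the change.

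**Figure D4:**
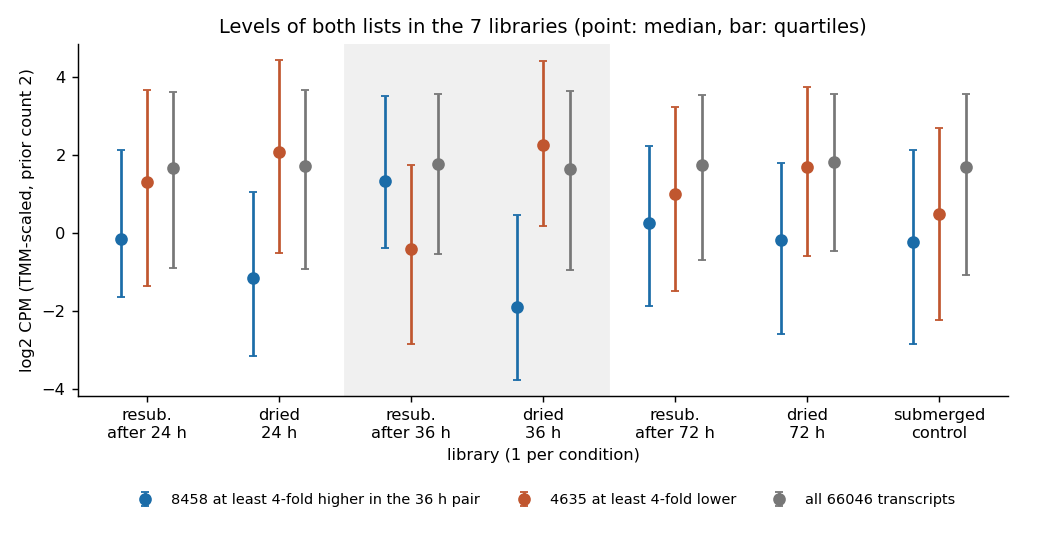
Level in log2 CPM (points: median, bars: lower and upper quartile over transcripts) of the transcripts at least 4-fold higher and at least 4-fold lower in the 36 h pair and of all transcripts, in each of the 7 libraries. In the shaded 36 h pair the higher list has medians of 1.34 and -1.88 and the lower list -0.40 and 2.26, while the median of all transcripts stays between 1.64 and 1.82 over the libraries.

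Transcripts with very large ratios were split by the libraries that held a similar level. Among the 256 transcripts at least 64-fold higher, in 155 assembled genes, 147 had no other library within 4-fold of the level in the library resubmerged after 36 h. The library resubmerged after 72 h and the control each came within 4-fold for 69, the library desiccated for 72 h for 28, that desiccated for 24 h for 24 and that resubmerged after 24 h for 16. Over all transcripts, 9.82%, 14.3%, 18.3%, 22.1% and 13.2% differed 4-fold or more from these libraries, in this order. Among the 59 at least 64-fold lower, in 29 assembled genes, 51 had a level in the library desiccated for 72 h within 4-fold of that in the library desiccated for 36 h. The same held for 43 in the library desiccated for 24 h and for 41 in that resubmerged after 24 h, but for 15 in that resubmerged after 72 h and 12 in the control. For 4 of the 59 no other library was that close. The share of all transcripts with no other library within 4-fold was computed for neither set, so the 147 and the 4 have no background value. Over all transcripts, 11.1% were 4-fold or more apart between the libraries desiccated for 36 h and 72 h, and 7.74% between those of 36 h and 24 h, so closeness to the other dry libraries is not particular to the 59. The library desiccated for 36 h was that far from those resubmerged after 24 h and 72 h in 14.1% and 11.0%. From the control it was that far in 14.5%. Both sets were chosen by the 36 h ratio, which favours extreme levels in its 2 libraries. The 256 had a median level of 3.49 log2 CPM in the library resubmerged after 36 h and -4.02 in that desiccated for 36 h. Their medians were 0.29 and -1.20 in the resubmerged and desiccated libraries of 72 h and -0.07 in the control. In the resubmerged and desiccated libraries of 24 h they were -3.10 and -3.51.

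Of the 89 transcripts nearly alone in the library resubmerged after 36 h, 21 had at least 10000 counts there. These 21, in 15 assembled genes and 8 components, took 3.001% of the counts of that library, had up to 806512 counts, and ranged from 25.5 to 63.6% GC and from 404 to 4136 nt. For every 100000 counts there, the library desiccated for 36 h had a median of 11.4 counts of the same transcript (0 to 193). The library resubmerged after 24 h also had 11.4, that desiccated for 24 h 5.12, those resubmerged and desiccated for 72 h 3.84 and 2.11, and the control 2.83. The highest values were 3256 and 342 in the resubmerged and desiccated libraries of 24 h. They were 4084 and 3105.5 in those of 72 h and 2174 in the control. The rule of at least 20 times any other library sets low values elsewhere.

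Presence against absence gave smaller lists. With 0 counts in the library desiccated for 36 h and at least 50 after resubmergence there were 167 transcripts in 132 assembled genes, with a median of 110 counts and a maximum of 13491. At the median count and a floor of 3 counts in the dry library this is 34.2-fold higher. Of the 167, 85 had fewer than 50 counts in each of the other 5 libraries. At least 50 counts were found for 44 in the library resubmerged after 72 h, 38 in the control, 25 in the library resubmerged after 24 h, 24 in that desiccated for 72 h and 8 in that desiccated for 24 h. With 0 counts after resubmergence and at least 50 in the dry library there were 74 transcripts in 51 assembled genes. Their median was 85 counts, or 30.3-fold lower by the same floor. At least 50 counts of these were found for 47 in the library desiccated for 24 h, 33 in that resubmerged after 24 h, 31 in that desiccated for 72 h, 15 in the control and 12 in that resubmerged after 72 h. Of the 74, 20 had fewer than 50 counts in each of the other 5 libraries. Both lists are cut at 50 counts, below their medians of 110 and 85, and the share over transcripts of similar level was not computed. The floor of 3 counts corresponds to 0.0344 CPM after resubmergence and 0.0369 CPM in the dry library.

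Transcripts at both ends of the range of GC content differed most often, those at the upper end on the higher side and those at the lower end on the lower side. Of the 7692 transcripts of 65% GC or more, 3361 (43.7%) were at least 4-fold higher after resubmergence and 54 (0.702%) lower, with a median log2 ratio of 1.77. Of the 427 under 40% GC, 26 (6.09%) were higher and 124 (29.0%) lower, with a median of -0.96. Between these ends the order changed from band to band. At 40 to 45% GC 9.98% of 1393 transcripts were higher and 7.25% lower, and at 45 to 50% 7.71% of 6573 were higher and 7.52% lower. The lower side was the larger at 50 to 55% GC, where 4.12% of 19130 transcripts were higher and 11.0% lower, and the higher side at 60 to 65%, where 16.1% of 14792 were higher and 3.12% lower. The transcripts at least 4-fold higher had a median GC of 63.5% and those lower one of 53.8%, beside 56.8% for all. G and C took part alike, with medians of 31.5% G and 31.3% C in the higher list and 27.0% and 26.7% in the lower list, beside 28.3% and 28.2% over all.

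With 1 transcript per assembled gene the contrast was wider at the upper end, where 1468 of 2614 transcripts of 65% GC or more were higher (56.2%) and 25 lower (0.956%), a median log2 ratio of 2.37. The ratios were largest among those with few reads, where the filter itself has a part. The 1622 of them with a mean count of 10 to 100 had a median log2 ratio of 3.18, and 69.7% were at least 4-fold higher. Of these 1622, 601 averaged 10 counts or more over the 3 dry libraries and the control, so the others passed the filter through resubmerged libraries. The 698 with a mean count of 100 to 1000 had 1.60 and 38.1%, and the 294 with 1000 or more had 1.25 and 24.5%. The 1622 had median levels of -0.80 log2 CPM in the library resubmerged after 36 h and -3.75 in the library desiccated for 36 h. In the 24 h pair they had -1.17 and -3.73, in the 72 h pair -2.34 and -3.39, and in the control -3.36. By these medians all 3 resubmerged libraries were above all 3 dry libraries and the control, an order that the filter favours. In 58.8% of the set the highest of the 7 was that resubmerged after 36 h, beside 20.5% of all assembled genes. Length went with the share within this GC band too, with 75.4% of the 818 transcripts of 1000 to 2000 nt at least 4-fold higher, against 34.8% of the 778 shorter and 57.0% of the 1018 longer ones.

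At the low end the abundant transcripts differed most. Of the 38 assembled genes under 40% GC with a mean count of 1000 or more, 50% were at least 4-fold lower at 36 h and 73.7% at 24 h, but 5.26% at 72 h (2.70% without the 1 of them nearly alone in the dry library of 72 h). Their median levels were 4.73 log2 CPM in the library resubmerged after 36 h and 6.32 in the library desiccated for 36 h, 5.55 and 8.15 in the 24 h pair, 4.86 and 5.30 in the 72 h pair and 5.90 in the control. Transcripts of 65% GC or more took 9.53% of the counts after resubmergence and 3.25% in the dry library of 36 h, 7.84% and 3.16% at 24 h, 7.83% and 5.12% at 72 h (5.08% in the dry library without those nearly alone there), and 5.61% in the control. In the other pairs, 24.3% (24 h) and 6.36% (72 h) of the transcripts of 65% GC or more were at least 4-fold higher, and the part of GC content in the results above was not tested. With the GC trend removed from the ratios, 5962 transcripts were past 4-fold on the higher side, 4795 of them among the 8458, and 3764 on the lower, 2824 of them among the 4635.

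**Figure D5:**
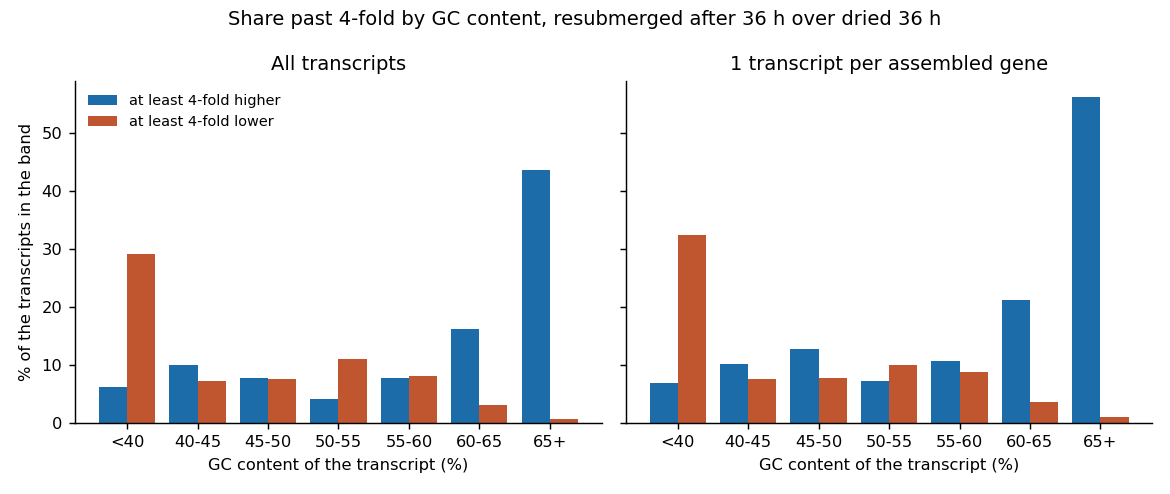
Percentage of transcripts at least 4-fold higher and at least 4-fold lower after resubmergence in the 36 h pair, by bands of GC content, for all transcripts (left) and 1 per assembled gene (right). The higher bar is tallest at 65% GC or more, at 43.7% and 56.2%, and the lower bar is tallest under 40% GC, at 29.0% and 32.4%.

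Level and length of a transcript also went with the share past 4-fold. Of the 10914 transcripts with a mean count of 10 to 30, 20.8% were at least 4-fold higher and 7.60% lower. The higher share was smaller at larger counts, at 9.83% for 300 to 1000 counts and 4.94% for 3000 to 10000, while the lower share stayed between 5.91% and 7.98% up to 10000 counts. Among the 814 with 10000 counts or more the order turned, with 67 higher (8.23%) and 132 lower (16.2%), and with 1 per gene 33 of 268 higher (12.3%) and 44 lower (16.4%). The median log2 ratio went with it, at 0.30 in the lowest band and -0.58 in the highest. Of the 24 abundant transcripts under 40% GC, 12 were among the 132. By length, transcripts under 500 nt were higher in 16.3% and lower in 10.2%, and those of 4000 nt or more in 8.31% and 3.19%. Counting error is larger at low counts and short lengths, and its part in these shares was not tested beyond the counting intervals above.

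The abundant transcripts held a large part of the counts of both lists. The 132 lower ones took 2.08% of the counts after resubmergence and 10.9% in the dry library, with 8.09% and 15.9% in the 24 h pair, 4.85% and 5.18% in the 72 h pair and 3.71% in the control. Of these 132, 13 were also at least 4-fold lower in the 24 h pair and 6 in the 72 h pair, beside 3.07% and 1.84% of the 814. The 67 higher ones took 8.92% after resubmergence and 0.793% in the dry library, and 12 and 5 of them were at least 4-fold higher in the 24 h and 72 h pairs, beside 2.70% and 0.860% of the 814.

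Isoforms of an assembled gene mostly differed in the same direction. Among the 10455 assembled genes that kept 2 or more transcripts, 1956 had a transcript at least 4-fold higher and 1318 one at least 4-fold lower, and 50 had both. Every transcript was at least 4-fold higher in 828 genes and at least 4-fold lower in 460. The log2 ratios within a gene spanned a median of 0.54, and 1427 genes (13.6%) spanned 2 or more. In 8184 genes with at least 100 summed counts in each library, the isoform with the most counts was another one in the 2 libraries for 2287 (27.9%). It led by at least 20 points of the summed counts in both libraries in 18 of them. Isoforms share reads, so they can look more alike than they are.

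The authors' deposited table for this pair compares the same 2 libraries, with size factors of 1.01 for the resubmerged and 0.985 for the desiccated library. Of 115733 transcripts with a p-value in the authors' deposited table, 93 are higher (0.0804%) and 11 lower (0.00950%) at an adjusted p under 0.05, in 66 and 8 assembled genes. All 104 were past 4-fold in the ratios computed here, with log2 ratios of at least 6.99 for the 93 and of -7.38 or lower for the 11. The status labels of the authors' deposited table name 2077 transcripts as up and 673 as down, a looser grading than the adjusted p. The 93 had 560 to 215200 counts after resubmergence (median 3309) and at most 45 in the dry library (median 4). The 11 had a median of 2 counts after resubmergence and 539 to 12552 in the dry library. In the other pairs, 24 of the 93 were at least 4-fold higher at 24 h and 25 at 72 h, and 6 and 3 at least 4-fold lower. Of all transcripts, 5.51% and 4.11% were higher and 3.29% and 7.51% lower in these pairs. Of the 11, 3 were at least 4-fold lower at 24 h and 10 at 72 h. These p-values rest on 1 library against 1 and hold no spread between thalli.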

How the data were processed

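RNA of 7 conditions of Ulva lactuca was sequenced, 1 library each, and groups follow the treatment labels. Tools named in the submitters' processing notes are Bowtie2, DESeq and cutadapt, with no version or role. For the assembler and the counting program, none is given in the sources used here. Per the file headers, the authors' expression table holds a read count and an FPKM per transcript and library, with transcript length, base numbers and GC percent. The authors' table of the 36 h pair holds a fold change (ratio), a p-value, an adjusted p-value and a signal, which is the authors' count over their size factor. FPKM served for implied library totals, levels per length and 1 alternative.

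Counts were used as deposited. Trimmed-mean (TMM) scaling over 7 libraries came from edgeR 4.0.16 (R 4.3.3), with size factors of DESeq2 1.42.0 as an alternative, and log2 CPM had a prior count of 2. Ratios have exact (Clopper-Pearson) 95% intervals from both counts, after scaling, with a floor of 3 counts where a library has 0. Intervals and floors cover counting error only, and take each count as a separate read. Where reads are counted more than once, the intervals are too narrow. The scripts were tested on simulated data. Named transcripts are, with 1 per assembled gene, the 2 with the highest lower limit of the ratio in each direction. The comparison, lists and rules were chosen with earlier results of these data known. The rule for transcripts nearly alone in a library and the split by similar level at 64-fold were set after the data were seen. The authors' tables of other pairs were not used here.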

Additional observations from a re-analysis of the deposited data

Results flagged for a closer look

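Transcript c34582_g1_i3 was lower after resubmergence in the 36 h pair, with a log2 ratio of -8.30, and slightly higher in the 24 h pair, with a log2 ratio of 0.34, and both counting intervals leave out a ratio of 1. It had 167 and 49770 counts in the resubmerged and desiccated libraries of 36 h, and 45946 and 35366 in those of 24 h. The intervals take each count as a separate read and hold no spread between thalli. The difference between the pairs was not tested, since each has 1 library on a side.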

How the results depend on the processing

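Of 99 recomputed counts, 81 stayed within 1.5 times the value reported, and no alternative turned the direction of a named transcript. Fewer transcripts pass a mean count of 50, which left 3071 lower transcripts, 1784 higher and 819 lower genes with 1 transcript each, 988 and 303 of the 36 h higher and lower lists also found at 24 h, 617 and 303 found at 72 h, and 21 genes whose isoforms moved apart. With no filter beyond 1 count there were 6999 higher and 3016 lower genes, and 3358 higher transcripts shared with 24 h. With the GC trend removed, 1101 higher and 283 lower transcripts were shared with 24 h, and 30 genes had isoforms moving apart. A prior count of 5 left 674 higher transcripts shared with 72 h, and deposited FPKM values left 345 lower ones shared with 24 h. For both, the cause was not tested. Counting intervals wholly past 4-fold left 2934 lower transcripts and 971 lower genes. Scaling by total counts moved the median log2 ratio to 0.15 and the higher share of those past 4-fold to 71.8%, against 64.6%. The filter over the 2 libraries of the pair and the set without transcripts nearly alone after resubmergence were added after the data were seen, and changed no count by over 1.5 times. TMM factors from the pair alone give no values for the other pairs. No paired analysis was possible because each condition has 1 library and the result comes from no test.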
